A study of Homo sapiens with 2 samples.

Results

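Cycling endothelial cells were examined in 2 blood-generating heart-forming organoids (BG-HFOs), 32.7 and 33.10, each profiled as 1 single-cell RNA library at day 14. Both organoids were grown from hES3 NKX2.5-eGFP, a human embryonic stem cell line that carries a green fluorescent reporter for the cardiac gene NKX2.5. Stem cell aggregates in Matrigel were driven towards cardiac, endothelial and blood fates by activating and then blocking WNT signalling and by adding haemato-endothelial growth factors. There was no untreated, donor or time group, so every comparison was made between cells of the same 2 organoids. A library holds cells from a single organoid of a single cell line, and the labels do not say whether the organoids came from separate differentiations. A p-value therefore rests only on the spread between these 2 organoids, pooled over all cell classes of a fit.

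The cycling endothelial cells were chosen by raw counts of unique molecular identifiers (UMIs, each standing for a captured RNA molecule). After a filter of 500 to 9000 genes and under 15% mitochondrial UMIs, 15632 of 16866 barcodes were left in organoid 32.7 and 19117 of 19948 in organoid 33.10. At least 2 UMIs of CDH5 and 1 of PECAM1 were required, the genes of the endothelial junction proteins VE-cadherin and CD31. Barcodes with any UMI of PTPRC or RUNX1, markers of blood cells and of endothelium turning into blood, were left out, as were those with over 2 UMIs of the cardiomyocyte gene MYH6 or over 1 of the mesenchymal gene PDGFRA. These limits left 1845 and 1738 endothelial cells, and 80 and 73 of them carried at least 3 UMIs of MKI67 and TOP2A together. The cycling endothelial cells were thus 153 of 36814 barcodes. The 2 libraries shared 100 barcode sequences, none of them from a cycling endothelial cell.

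The eukaryotic cell cycle runs from G1 through DNA synthesis (S phase) and G2 to mitosis. Mitogens raise D-type cyclins, which with CDK4 and CDK6 inactivate the retinoblastoma protein and free E2F factors to switch on genes for DNA replication. Genes for mitosis follow in G2, and MKI67 and TOP2A mark cells from S phase to mitosis. In growing vessels, endothelial division is frequent in veins and sprouting plexus, whereas Notch signalling and flow are known to slow the cycle in arterial endothelium.

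The 4 limits on other lineages removed many cycling cells. Of the 210 and 238 barcodes that passed CDH5, PECAM1 and the cycling count, 130 and 165 were left out by at least 1 of the 4 genes. RUNX1 left out 97 and 135 of them, PTPRC 60 and 28, MYH6 45 and 34, and PDGFRA 38 and 50. The values below therefore describe cycling endothelium without a RUNX1 UMI.

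The cycling count had no gap at its limit. Among the endothelial cells, 1644 and 1544 had no UMI of either cycling gene and served as non-cycling endothelial cells. A further 94 and 97 cells had 1 UMI and 27 and 24 had 2, just outside the limit, and 12 and 12 had 3, just inside it. For CDH5, 11 and 29 otherwise fitting cycling barcodes had 1 UMI and were left out, and 15 and 20 had 2 and were kept.

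Depth differed between the classes. A cycling endothelial cell held between 6422 and 56365 UMIs in organoid 32.7 with a median of 23646.5, and between 4668 and 51006 in organoid 33.10 with a median of 18830. The median non-cycling endothelial cell held 13397.5 and 11270.5 UMIs. Cycling cells of the mesenchymal gate were also deep, with medians of 19207 and 19442. A fixed count of 3 UMIs is reached more easily in a deep cell, so results are also given at equal depth, and levels are given as CPM, the UMIs of a gene summed over the cells of a class and scaled to a common total for every class. Of the cycling endothelial cells, 11 of 80 and 8 of 73 were predicted doublets (13.75% and 10.96%), against 4.32% and 8.10% of the non-cycling ones.

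The genes of the gate are given as a description, since the rule fixed their presence. CDH5 stood at 217 and 226 CPM in the cycling endothelial cells of organoids 32.7 and 33.10 and at 366 and 334 CPM in the non-cycling ones. PECAM1 stood at 264 and 232 CPM against 454 and 456 CPM. MKI67 reached 155 and 216 CPM and TOP2A 241 and 269 CPM, with none in the non-cycling cells by definition. Per cell, the median of MKI67 and TOP2A together was 8 UMIs in organoid 32.7 and 6 in organoid 33.10, with highest values of 54 and 56. The label was checked on endothelial genes outside the gate, with FLT1 at 1211 and 1112 CPM, EGFL7 at 1196 and 1174 CPM and KDR at 696 and 698 CPM.

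Cycling cells were 4.34% of the endothelial gate in organoid 32.7 (80 of 1845, 95% exact binomial interval 3.45 to 5.37) and 4.20% in organoid 33.10 (73 of 1738, 3.31 to 5.25). The 2 organoids thus gave shares within each other's interval. In the mesenchymal gate (at least 2 UMIs of PDGFRA, at most 2 of MYH6 and none of CDH5, PECAM1, PTPRC or RUNX1) the share was 11.8% and 16.9%, and in the cardiomyocyte gate (at least 5 UMIs of MYH6, at most 1 of PDGFRA and none of the same 4 genes) 3.22% and 4.20%. Cells with at least 8000 UMIs were also thinned to 8000 before counting and shallower cells left out, which kept 373 of 807 and 463 of 833 cells of the cardiomyocyte gate. The endothelial share was then 2.92% (43 of 1473) and 3.58% (45 of 1258), the mesenchymal 9.11% and 14.6% and the cardiomyocyte 3.22% and 4.75%. In both organoids and at both depths the mesenchymal gate held the highest share. With 2 organoids no test of these shares was made, and the intervals cover counting error only.

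The cycling endothelial cells were ordered by a relative score of S phase and G2/M genes. Each cell was scored by its UMIs of a list of S phase genes and of a list of G2/M genes without MKI67 and TOP2A, each divided by the mean of all 153 cells. A log2 ratio above 0.5 was called S-leaning and one below -0.5 G2/M-leaning, which are ranges of a score and not cell types. Dividing by the mean centres the score, so it places cells relative to each other and not in an absolute phase. In organoid 32.7, 16 of 80 cells leaned to S (20%), 23 to G2/M (28.75%) and 41 lay between. In organoid 33.10, 21 of 73 leaned to S (28.8%), 10 to G2/M (13.7%) and 42 lay between. The organoids thus differed in which end was more filled, and 26 and 22 cells lay within 0.25 of a limit.

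Genes outside the score are given along it as a description, because the score sorted the same cells. CCNE1 and E2F1 belong to the entry into S phase. E2F1 stood at 73.0 and 88.3 CPM in the S-leaning cells of organoids 32.7 and 33.10 and at 8.17 and 0 CPM in the G2/M-leaning ones. PLK1, a kinase of mitotic entry, stood at 10.1 and 2.67 CPM in S-leaning and at 63.7 and 52.1 CPM in G2/M-leaning cells. CCNB1, the cyclin of mitotic entry, stood at 35.2 and 37.4 CPM against 194 and 171 CPM. CDKN1A, a CDK inhibitor that arrests the cycle, was at 45.3 and 61.5 CPM against 42.5 and 89.4 CPM, with no shared order between organoids.

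RNA of other lineages differed between the ranges of the score. The 12 erythroid genes summed to 85.6 and 254 CPM in S-leaning, 11787.5 and 808 CPM in cells between and 10089.9 and 2629.7 CPM in G2/M-leaning cells, and 11 of the 12 were higher in G2/M-leaning than in S-leaning cells in both organoids. Only 5 of 80 and 2 of 73 cycling cells had over 1% of their UMIs from this list, so few cells can carry these sums. HBZ, an embryonic globin gene, stood at 22.7 and 61.5 CPM in S-leaning and at 4623 and 1255 CPM in G2/M-leaning cells. The 12 mesenchymal genes summed to 556 and 58.8 CPM in S-leaning, 104 and 271 CPM in cells between and 632 and 726 CPM in G2/M-leaning cells, so that they followed the score in organoid 33.10 and were lowest between the ends in organoid 32.7. COL3A1, a fibrillar collagen gene, led both ends, and 9 of the 12 were higher in G2/M-leaning than in S-leaning cells in both organoids. In S-leaning cells 7 and 4 of the erythroid and 2 and 6 of the mesenchymal genes were at 0, and in G2/M-leaning cells 0 and 1 and 1 and 1. The 8 megakaryocyte genes summed to 30.2 and 58.8 CPM in S-leaning, 119 and 80.8 CPM in cells between and 547 and 78.2 CPM in G2/M-leaning cells, with 4 of the 8 higher in G2/M-leaning than in S-leaning cells in both organoids. The 12 cardiomyocyte genes summed to 254 and 211, 167 and 379, and 220 and 153 CPM in the same order. The part of this RNA in the values along the score was not tested.

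**Figure D1:**
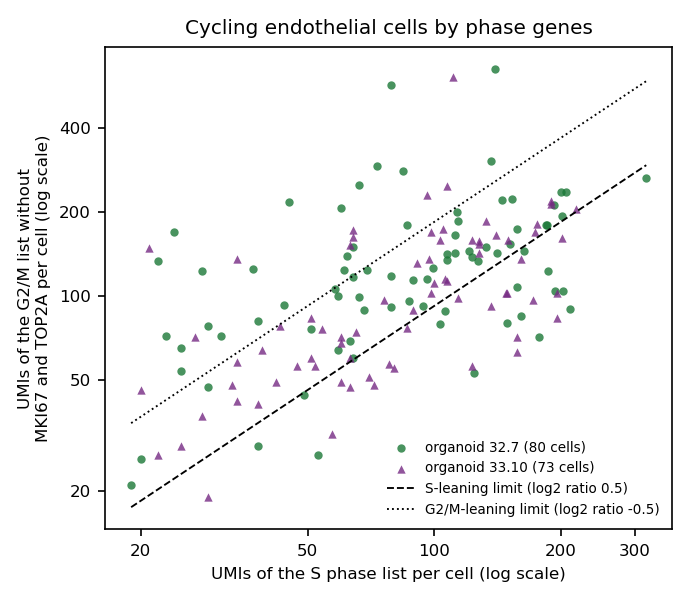
Each point is a cycling endothelial cell, placed by its UMIs of the S phase list (x axis, log scale) and of the G2/M list without MKI67 and TOP2A (y axis, log scale), with an own colour for each organoid and dashed lines at the limits of the log2 ratio. The points form a continuum with 16 and 21 S-leaning and 23 and 10 G2/M-leaning cells and no gap at the lines.

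The start regions of cell cycle genes carry short sequence elements known from work on their control, and those of 3 genes high in each range are shown because they differ in these elements. CCAAT is the box bound by NF-Y, TTTGAA is a core of the cell cycle homology region bound by the DREAM complex and MuvB, and TTTNNCGC (N is any base) is a core of the E2F site. The 150 bases before the start of each gene are printed from RefSeq on GRCh38.p14, 5′ to 3′ on the gene's strand, with matches on either strand in capitals, so that CCAAT may read ATTGG. CCNB2 is a mitotic cyclin, PLK1 a mitotic kinase and CDC20 an activator of the anaphase-promoting complex. MCM6 is a subunit of the replicative helicase, PCNA the sliding clamp of DNA polymerase and E2F1 a transcription factor of S phase entry.
CCNB2, chr15:59104996-59105145, + strand: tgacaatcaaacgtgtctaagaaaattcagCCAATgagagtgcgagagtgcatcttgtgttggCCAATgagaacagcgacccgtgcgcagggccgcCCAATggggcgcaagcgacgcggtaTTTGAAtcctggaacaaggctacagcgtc
PLK1, chr16:23678739-23678888, + strand: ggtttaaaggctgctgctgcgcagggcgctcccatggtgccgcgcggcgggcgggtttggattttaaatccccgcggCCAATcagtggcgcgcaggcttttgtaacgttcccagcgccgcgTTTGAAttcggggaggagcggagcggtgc
CDC20, chr1:43358831-43358980, + strand: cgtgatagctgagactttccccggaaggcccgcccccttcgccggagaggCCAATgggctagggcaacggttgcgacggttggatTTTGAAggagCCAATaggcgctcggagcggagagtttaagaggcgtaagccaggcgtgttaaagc
MCM6, chr2:135876444-135876593, - strand: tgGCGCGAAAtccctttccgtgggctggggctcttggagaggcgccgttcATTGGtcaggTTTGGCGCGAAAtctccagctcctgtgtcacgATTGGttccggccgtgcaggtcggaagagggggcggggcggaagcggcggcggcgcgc
PCNA, chr20:5126623-5126772, - strand: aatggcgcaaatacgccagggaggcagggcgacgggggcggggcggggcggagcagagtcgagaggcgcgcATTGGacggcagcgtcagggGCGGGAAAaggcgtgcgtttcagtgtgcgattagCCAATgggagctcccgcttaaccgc
E2F1, chr20:33686386-33686535, - strand: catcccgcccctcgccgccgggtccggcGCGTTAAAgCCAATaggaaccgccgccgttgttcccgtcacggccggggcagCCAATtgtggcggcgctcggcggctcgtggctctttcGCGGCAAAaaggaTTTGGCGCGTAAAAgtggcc

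The first 3 regions held CCAAT and TTTGAA and no TTTNNCGC, and the last 3 held CCAAT and TTTNNCGC and no TTTGAA. Counted on both strands over 300 bases, CCAAT was found in 35.7% of 27305 RefSeq promoters, TTTGAA in 15.4%, TTTNNCGC in 6.9% and CCAAT together with TTTGAA in 6.08%. Of the 54 genes of the G2/M list, 45 had a promoter in the table, and 31 of them held CCAAT, 31 TTTGAA (68.9% each), 25 both (55.6%) and 5 TTTNNCGC (11.1%). Of the S phase list only 32 of 43 genes had a promoter in the table, too few for a count. A match is a description of letters and not of a bound factor.

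Against non-cycling endothelial cells, the cycling ones carried less RNA for arterial and sprouting genes. They carried more for nucleotide and chromatin factors, which is given as a description because genes tied to the cycle follow from the gate. Of 17522 genes tested by edgeR's quasi-likelihood test over the 2 organoids, 2232 passed an adjusted p of 0.05 (12.7%), with 1012 higher (5.78%) and 1220 lower (6.96%) in cycling cells. The split between higher and lower moved with the scaling and with the classes and cells fitted. In the main fit, with TMM scaling, the median gene lay at -0.15 on the log2 scale and 45.3% of calls were higher. On library totals without TMM the median gene lay at -0.04 and 62.0% were higher. The share was 61.8% with only the compared classes fitted, 61.2% with stricter lineage limits and 63.5% without cells over 1% erythroid or megakaryocyte UMIs. Changes are read against that shift of the median gene. With organoid as a block, 3702 genes were called (21.1%, with 7.95% higher and 13.2% lower). Against non-cycling cells matched in depth (medians 23667.5 and 18847 UMIs) 2129 of 16952 genes were called (12.6%, with 6.23% higher and 6.33% lower), among them 14 of 18 arterial genes lower, 13 of 20 tip genes lower and 20 of 27 nucleotide genes higher.

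The cell cycle genes themselves follow from the gate and are described without a test. Genes tied to the cycle outside these lists follow from it too. Rises of G1, nucleotide, chromatin and histone genes, CDKN3 and ASPM below are therefore a description, and their p-values are no separate support. All 43 S phase genes, 52 of 52 G2/M genes outside the gate and 20 of 20 mitotic genes had a log2 difference above the median of all genes, with medians of 2.42, 3.98 and 4.18. RRM2, the small subunit of ribonucleotide reductase, stood at 228 and 278 CPM in cycling and at 2.95 and 5.08 CPM in non-cycling endothelial cells. HMGB2, a chromatin protein of dividing cells, stood at 379 and 345 CPM against 23.5 and 23.6 CPM. Cells with 1 or 2 UMIs of the cycling genes lay between, with RRM2 at 59.4 and 54.2 CPM and HMGB2 at 81.9 and 98.2 CPM.

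Of the 16 G1 regulators tested, 9 rose and 1 fell (median 0.81), beside 5.78% of all genes higher and 6.96% lower. CCNE2, among the 9, is also in the S phase list. CCNE1, cyclin E1 of the G1 to S transition, stood at 14.6 and 15.5 CPM against 1.33 and 1.32 CPM, a 10.4-fold rise (log2 3.37 ± 0.41 SE, adjusted p = 8.66e-05 by edgeR). The groups were far apart in both organoids. E2F1 rose 7.46-fold (31.4 ± 5.11 CPM against 3.87 ± 1.14 CPM, SD, n = 2 organoids), E2F2 by 4.93 on the log2 scale (4.04 without organoid 32.7 and 4.09 without organoid 33.10) and RBL1, the pocket protein p107, by 2.16. CDK4 stood at 154 and 143 CPM against 70.8 and 68.4 CPM, a 1.98-fold rise.

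None of the 3 D-type cyclins was called higher. CCND1, cyclin D1, stood at 162 and 210 CPM in cycling and at 193 and 185 CPM in non-cycling endothelial cells, with overlapping values (log2 -0.15 ± 0.15 SE, adjusted p = 0.585 by edgeR). CCND2, cyclin D2, stood at 92.2 and 115 CPM against 185 and 184 CPM and fell 1.94-fold. CCND3, cyclin D3, stood at 35.1 and 31.0 CPM against 23.3 and 35.9 CPM, with overlapping values (adjusted p = 0.911 by edgeR). RB1, the retinoblastoma gene, was at 567 and 595 CPM against 642 and 728 CPM (adjusted p = 0.0934 by edgeR), and was called lower with organoid as a block (log2 -0.35). Among 8 CDK inhibitors 1 was called higher and 1 lower. The lower was CDKN1A, at 56.1 and 53.2 CPM against 124 and 101 CPM (2.23-fold, adjusted p = 0.00189 by edgeR). The higher was CDKN3, a phosphatase gene that peaks in mitosis (log2 4.17). CDKN1C, at 28.8 and 17.5 CPM against 46.6 and 28.8 CPM, was also called lower with organoid as a block.

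Of the 27 nucleotide synthesis genes 18 rose and none fell, with a median log2 difference of 0.87. Without the 3 that are also in the S phase list, 15 of 24 rose, beside 5.78% of all genes. TK1, thymidine kinase 1, stood at 95.6 and 114 CPM against 3.78 and 5.85 CPM (20.1-fold). SHMT1, the cytosolic serine hydroxymethyltransferase, rose by 2.34 on the log2 scale (1.72 without organoid 32.7). SHMT2, its mitochondrial partner, was at -0.01 ± 0.23 SE (adjusted p = 0.982 by edgeR). In purine synthesis PAICS was at 1.18, PPAT at 1.08 and GART at 0.60 on the log2 scale.

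Of 29 chromatin genes 25 rose and 1 fell. Without the 4 shared with the cell cycle lists, 21 of 25 rose and 1 fell. HMGB1, an abundant DNA-bending protein gene, stood at 1889 and 1924 CPM against 890 and 873 CPM, a 1.99-fold rise, and H2AFZ, the histone variant H2A.Z, rose 2.22-fold. EZH2, the methyltransferase of Polycomb, rose 3.44-fold and DNMT1, the maintenance DNA methyltransferase, 2.25-fold. The lamins parted, with LMNB1 at 145 and 162 CPM against 30.7 and 37.3 CPM and LMNA, the gene that fell, at 120 and 127 CPM against 186 and 158 CPM. LMNA fell by 0.60 on the log2 scale (adjusted p = 0.0169 by edgeR).

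With the same minimum of 20 CPM, the largest rises outside the cell cycle lists were in 4 replication-dependent histone genes and ASPM, a spindle pole gene. HIST1H1B stood at 50.2 and 86.9 CPM against 0.290 and 0.559 CPM (log2 7.18), HIST1H3G rose by 7.25, HIST1H3B by 6.40 and HIST1H2AJ by 6.18 on the log2 scale. Values without an organoid come from scaled log2 CPM and not from the fit, so they can differ from it for genes near 0 in a class. HIST1H3G was at 5.89 without organoid 32.7 and at 5.65 without organoid 33.10, both below the fit. HIST1H1B was at 6.61 and 6.45 in the same order. Without organoid 32.7 HIST1H3B was at 5.39 and HIST1H2AJ at 5.16. Histone genes of these families have near-identical copies and most of their RNA lacks a poly(A) tail, so the share of a single copy is uncertain in a 3′ library. Among genes with at least 20 CPM in the higher class, the largest falls were in MCTP1 (9.07-fold), UNC5B-AS1, PRND (8.27-fold), CCSER1 and AC080132.1. Without organoid 32.7 MCTP1 was at -2.59 and UNC5B-AS1 at -6.64 on the log2 scale, and without organoid 33.10 UNC5B-AS1 was at -2.21. PRND, which encodes the prion-like protein doppel, stood at 9.76 and 10.8 CPM against 90.4 and 65.2 CPM.

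Of 27 pan-endothelial genes outside the gate 11 fell and none rose (median log2 difference -0.60), beside 6.96% of all genes lower. CD34, a sialomucin of endothelial and progenitor surfaces, stood at 66.3 and 72.1 CPM against 183 and 197 CPM and fell 2.98-fold (log2 -1.57 ± 0.13 SE, adjusted p = 2.64e-06 by edgeR). CLDN5, the tight junction gene claudin 5, stood at 29.3 and 27.6 CPM against 88.5 and 71.0 CPM (3.03-fold lower). FLT1, a decoy receptor for VEGF, stood at 1211 and 1112 CPM against 2288 and 2413 CPM (2.19-fold lower), and KDR, the main VEGF receptor, at 696 and 698 CPM against 1002 and 1007 CPM (1.56-fold lower). None of these 4 overlapped between the classes. ERG and FLI1, ETS factors that hold endothelial identity, gave log2 differences of -0.31 ± 0.15 and -0.19 ± 0.16 SE and no call, whereas SOX18 and ETS1, other factors of the list, were called lower at -0.82 and -0.60. With stricter limits on other lineages, where 2.68% of all genes were called lower and 4.23% higher, 3 of the 27 were lower.

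Arterial genes were lower as a group. Of 19 arterial genes 15 fell and 1 rose, beside 6.96% of all genes lower. Their median log2 difference was -1.08, against an all-gene median of -0.15. The count was between 10 and 16 lower over the other settings run on all cells. All genes called lower also varied, from 481 of 17932 with stricter lineage limits to 2309 of 17522 with organoid as a block. CXCR4, a chemokine receptor of arterial and tip endothelium, stood at 93.6 and 58.6 CPM against 274 and 263 CPM (3.76-fold lower). GJA4, connexin 37, stood at 183 and 122 CPM against 504 and 419 CPM (3.25-fold lower). EFNB2, the arterial ephrin ligand, fell 2.79-fold, SOX17, an arterial transcription factor, 2.39-fold and DLL4, a Notch ligand, 1.82-fold. The gene that rose was BMX, a kinase gene of low level (4.39 and 2.02 CPM against 0.664 and 0.763 CPM, log2 2.10, and 1.05 without organoid 32.7). JAG1 was at 43.9 and 53.2 CPM against 45.9 and 41.3 CPM, with overlapping values.

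Of 14 venous genes 1 was higher and 3 lower, beside 5.78% and 6.96% of all genes. NR2F2, the transcription factor of venous identity, stood at 79.5 and 80.8 CPM against 97.0 and 77.2 CPM, with overlapping values. Its relative NR2F1 rose 3.29-fold, from 5.73 and 6.91 CPM to 17.1 and 29.0 CPM (adjusted p = 0.017 by edgeR). NRP2, a semaphorin and VEGF co-receptor of veins, stood at 538 and 610 CPM against 448 and 417 CPM (log2 0.29 ± 0.26 SE, adjusted p = 0.517 by edgeR). APLNR, the apelin receptor of sprouting veins, stood at 204 and 187 CPM against 161 and 145 CPM (adjusted p = 0.368 by edgeR), and rose in the fit that joined the organoid block with depth-matched cells (log2 0.54).

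Of 20 genes of tip cells and sprouting 13 fell and none rose (median -0.82). ESM1, an endothelial proteoglycan gene of tip cells, stood at 643 and 389 CPM against 1846 and 1990 CPM (3.99-fold lower, adjusted p = 0.00338 by edgeR). VEGFC, a growth factor for venous and lymphatic endothelium, stood at 30.2 and 42.4 CPM against 120 and 141 CPM (3.94-fold lower). Of 17 Notch pathway genes 7 fell, 6 of them also in the arterial list, and NOTCH2 rose, from 7.10 and 5.69 CPM to 17.6 and 19.5 CPM (2.65-fold). INSR, the insulin receptor, was among 8 of 19 genes of the VEGF, FGF and IGF axes that fell (2.59-fold). Of 31 junction and matrix genes 16 fell, among them CTNNB1, β-catenin, from 542 and 558 CPM to 287 and 280 CPM, and 1 rose. With organoid as a block the counts of lower genes were 16 for tip, 22 for junction and 15 for pan-endothelial genes, in a fit that called 13.2% of all genes lower in place of 6.96%.

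**Figure D2:**
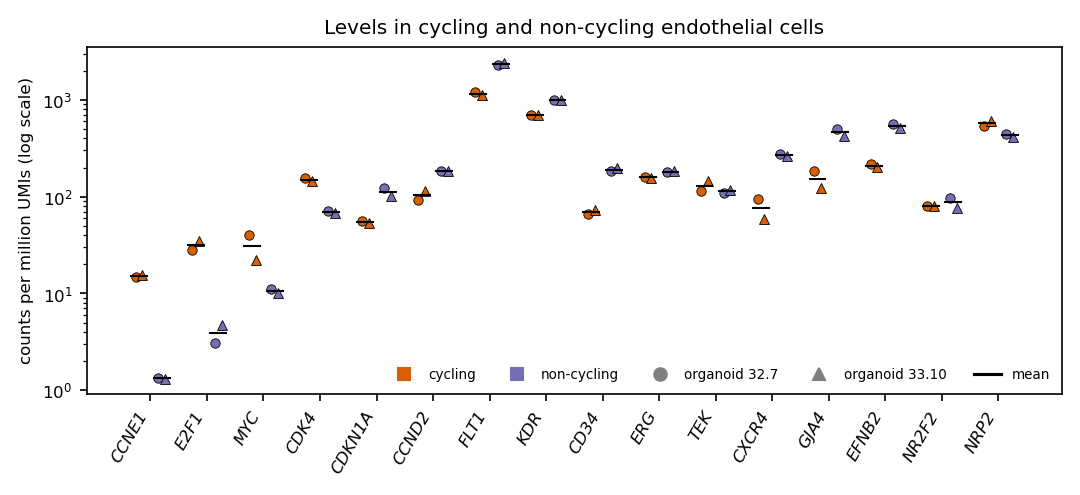
CPM on a log axis of 16 named genes in cycling and non-cycling endothelial cells, with a point for each organoid and a line at the mean. CXCR4, GJA4, EFNB2 and FLT1 lie lower and CCNE1, E2F1 and CDK4 higher in cycling cells of both organoids, whereas TEK and NR2F2 overlap.

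Flow response genes gave no call among 20 (median -0.32), and 5 of them were lower with organoid as a block, beside 13.2% of all genes in that fit. KLF2, a factor induced by shear stress, stood at 56.6 and 59.3 CPM against 50.1 and 44.2 CPM (adjusted p = 0.623 by edgeR). ID1, a target of BMP signalling, was at 1485 and 1654 CPM against 1813 and 1532 CPM, with overlapping values.

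Markers of other cell types were read in the same sums. The 12 mesenchymal genes summed to 349 and 300 CPM in cycling and to 232 and 169 CPM in non-cycling endothelial cells, with COL3A1 the most abundant (124 and 85.6 CPM) and POSTN at 0 in organoid 33.10. Among 11 tested, TWIST1 and PRRX1 rose and none fell, and PRRX1 (log2 1.19) was at 0.44 without organoid 32.7 and 1.82 without organoid 33.10. The 12 cardiomyocyte genes summed to 200 and 296 CPM against 237 and 248 CPM, led by MYL4, and the 11 myeloid genes to 45.8 and 36.4 CPM against 45.0 and 45.0 CPM. None of either list was called. The 8 foregut genes summed to 11.7 and 0.674 CPM against 51.6 and 6.05 CPM, and 7 of them were at 0 in organoid 33.10. The 9 epicardial genes summed to 42.9 and 81.5 CPM against 50.7 and 43.7 CPM, and the 8 endocardial genes to 1592 and 1501 CPM against 1883 and 1756 CPM, led by HAPLN1. In these lists TBX18, an epicardial factor, rose and NPR3, the natriuretic peptide clearance receptor gene, fell. The part of the mesenchymal RNA in the other differences was not tested. The 8 megakaryocyte genes summed to 230 and 74.8 CPM against 252 and 519 CPM, and PF4, platelet factor 4, was called lower with values of 68.8 and 37.7 CPM against 125 and 264 CPM. Without cells over 1% erythroid or megakaryocyte UMIs PF4 lay at 0.14 (adjusted p = 0.908 by edgeR), and it was at -2.92 without organoid 32.7 and -0.96 without organoid 33.10.

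Red cell genes were higher in sum in cycling cells of organoid 32.7 and lower in sum in those of organoid 33.10. The 12 erythroid genes summed to 9014 and 998 CPM in cycling and to 622 and 1942 CPM in non-cycling endothelial cells, led by the embryonic globin gene HBZ at 4735 and 358 CPM against 88.4 and 337 CPM. HBZ, AHSP and KLF1 were among those called higher. AHSP, a chaperone of α-globin, stood at 113 and 10.1 CPM against 1.04 and 5.19 CPM, and KLF1, an erythroid transcription factor, at 28.3 and 3.37 CPM against 0.664 and 1.78 CPM. These calls rested on organoid 32.7, without which AHSP was at 0.81, KLF1 at 0.71 and HBZ at -0.038 on the log2 scale. Over 1% of UMIs came from the erythroid list in 5 of 80 and 2 of 73 cycling cells and in 23 of 1644 and 63 of 1544 non-cycling cells, with up to 13.6% in a cycling cell. Without every endothelial cell over 1% erythroid or megakaryocyte UMIs, an alternative added after seeing the data, none of the 12 was called and HBZ lay at -0.97 on the log2 scale. In that fit 1919 of 17504 genes were called (11%), 1218 of them higher and 701 lower. Among them were 13 arterial genes lower, 7 pan-endothelial genes lower and 20 nucleotide genes higher. The defining blood genes PTPRC and RUNX1 were at 0 by the rule.

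Haemogenic genes, which mark endothelium able to form blood, were mixed, with 3 of 15 higher and 2 lower, beside 5.78% and 6.96% of all genes. GATA2, a factor of blood stem cell emergence, fell from 23.4 and 21.6 CPM to 9.76 and 10.8 CPM. MYB, a factor of definitive blood formation, rose at a mean of 2.47 CPM against 0.409 CPM (log2 2.52, and 1.28 without organoid 32.7). With stricter limits on other lineages none of the 15 was higher and 1 was lower, beside 758 higher and 481 lower of all 17932 genes. RUNX1 itself was fixed by the gate.

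Endothelial cells were also parted by 2 genes. The arterial side held at least 2 UMIs of CXCR4 and none of NR2F2, and the venous side at least 2 of NR2F2 and none of CXCR4. On the arterial side 2.60% of endothelial cells were cycling in organoid 32.7 (23 of 883, interval 1.66 to 3.88) and 1.29% in organoid 33.10 (10 of 774, 0.621 to 2.36). On the venous side the shares were 6.93% (21 of 303, 4.34 to 10.4) and 7.39% (19 of 257, 4.51 to 11.3). The intervals of the sides did not overlap in either organoid, and with 2 organoids no test of the shares was made. Among cells with a UMI of both genes 5.70% and 3.68% were cycling, and among those with neither 2.13% (0.694 to 4.90) and 9.13% (5.93 to 13.3).

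The order of the CXCR4 and NR2F2 cells was the same at equal depth. Among cells of at least 8000 UMIs thinned to that depth, 1.47% (12 of 814) and 1.16% (8 of 691) of cells with CXCR4 alone were cycling, against 5.76% (17 of 295) and 4.62% (11 of 238) of cells with NR2F2 alone. Of cells with neither gene 4.83% (14 of 290, 2.66 to 7.97) and 9.73% (25 of 257, 6.39 to 14.0) were cycling, so the intervals of the organoids overlapped, and in organoid 33.10 this share was above that of NR2F2 alone. Free RNA sets a background for such calls. At 8000 UMIs a cell, CXCR4 was seen in 1.53% and 4.83% of non-cycling cardiomyocytes, which should lack it, in 62.6% and 63.0% of non-cycling endothelial cells and in 41.8% and 17.6% of cycling ones. Before thinning these shares were 3.74% and 5.18%, 69.1% and 67.4%, and 52.5% and 27.4%, at median depths of 7108 and 8271 UMIs in the cardiomyocytes. At 8000 UMIs a cell, NR2F2 was seen in 6.44% and 3.31% of non-cycling cardiomyocytes, in 23.6% and 24.1% of non-cycling endothelial cells and in 31.6% and 32.4% of cycling ones. The arterial side was 28.75% and 13.7% of the cycling cells and 50.4% and 47.4% of the non-cycling ones, and the venous side 26.25% and 26.0% against 15.4% and 13.9%. At 8000 UMIs a cell, neither gene was seen in 29.1% and 52.9% of cycling and in 19.4% and 18.8% of non-cycling endothelial cells. Less CXCR4 in cycling arterial cells and fewer dividing arterial cells cannot be told apart in these shares.

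**Figure D3:**
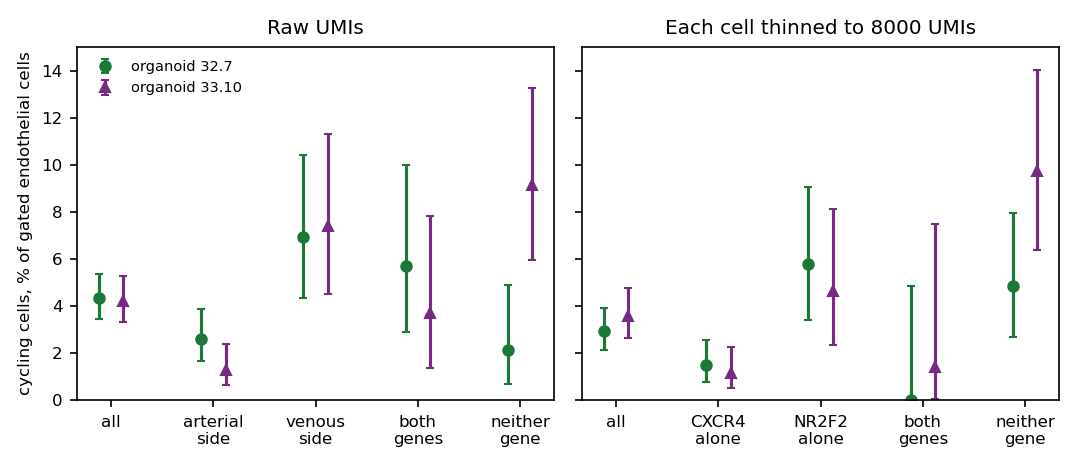
Cycling cells as a percentage of gated endothelial cells, over all cells and by CXCR4 and NR2F2, from raw UMIs (left) and after thinning each cell to 8000 UMIs (right), with a point for each organoid and exact 95% binomial intervals as bars. The venous-side points lie at 6.93% and 7.39% and the arterial-side points at 2.60% and 1.29%, and cells with neither gene lie at 4.83% and 9.73% after thinning.

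The class difference was therefore also read within each side, as an alternative added after seeing the data. Cycling cells were deeper there too, with medians of 24202 and 16975.5 UMIs against 14788 and 12606 on the arterial side and of 22867 and 21691 against 12291 and 11474.5 on the venous side, so each side was fitted again with non-cycling cells matched in depth. A minimum of 2 UMIs can admit deep cells at a lower level of the gene that set the side. Its part in the next values was not tested. CXCR4 stood at 211 and 229 CPM in cycling and 436 and 442 CPM in non-cycling cells of the arterial side, and NR2F2 at 249 and 212 CPM against 533 and 423 CPM on the venous side, and the falls of arterial and of venous genes within a side are read with that limit. Within the arterial side 580 of 12423 genes were called (4.67%), with 482 higher and 98 lower (0.789%). Within the venous side 893 were called (7.19%), with 567 higher (4.56%) and 326 lower (2.62%). Of 17 arterial genes other than CXCR4 and NR2F2, 3 were lower within the arterial side and 2 within the venous side, with medians of -0.50 and -0.30 against all-gene medians of -0.03 and -0.05. Fewer arterial genes passed the test within a side, whose sums held fewer cells, than over all endothelial cells. The share of arterial-side cells moved with the difference over all cells, and its part in that difference was not tested beyond these values. With depth-matched cells 544 of 9460 genes were called within the arterial side (5.75%, with 4.5% higher and 1.25% lower) and 602 within the venous side (6.36%, with 4.46% higher and 1.9% lower), and of 16 arterial genes 3 were lower within the arterial side and none within the venous side.

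GJA4 was lower on both sides. Within the arterial side it stood at 216 and 229 CPM in cycling cells and fell by 1.35 on the log2 scale (adjusted p = 0.00322 by edgeR), and within the venous side at 133 and 88.0 CPM it fell by 0.98 (adjusted p = 0.0272). With depth-matched cells the values were -1.15 and -0.54, and the call was kept within the arterial side and lost within the venous side (adjusted p = 0.178 by edgeR). UNC5B, a netrin receptor of arterial endothelium, fell by 0.81 within the arterial side and was at -0.13 within the venous side (adjusted p = 0.798 by edgeR). ACKR3, a scavenger of CXCR4's ligand, fell by 1.48 within the arterial side. For SOX17, DLL4 and EFNB2 the values within the arterial side were -0.52, -0.44 and -0.60, with adjusted p = 0.198, 0.302 and 0.160 by edgeR.

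Of 12 venous genes other than the pair that set the sides, 7 fell and none rose within the venous side (median -0.85), and with depth-matched cells 4 of 11 fell (median -0.61). MAF, a transcription factor gene of the basic leucine zipper family, stood at 97.1 and 92.3 CPM in cycling cells against 284 and 269 CPM in non-cycling ones and fell by 1.60 on the log2 scale (adjusted p = 0.00086 by edgeR). STAB1, a scavenger receptor, fell by 1.51, MRC1, the mannose receptor, by 1.25, DAB2, an endocytic adaptor, by 1.00 and EPHB4, the venous ephrin receptor, by 0.87. With depth-matched cells MAF, STAB1, MRC1 and EPHB4 were called at -1.28, -1.38, -1.35 and -0.75, and DAB2 was not (-0.67, adjusted p = 0.0695 by edgeR). TEK, the angiopoietin receptor, fell by 0.91 and by 0.93 with depth-matched cells, and APLNR fell by 0.68 and lost the call with depth-matched cells (-0.46, adjusted p = 0.167 by edgeR).

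Other genes held on 1 side or on both. ESM1 fell by 1.09, FLT1 by 0.85 and INSR by 1.04 within the arterial side, with values of -0.39, -0.20 and -0.19 and no call within the venous side. KDR fell by 0.91 within the venous side. CLDN5 stood there at 3.81 and 34.3 CPM against 90.5 and 69.6 CPM and was called lower, and the organoids differed widely in that fall. HMGA2, a chromatin protein of fetal growth, rose by 1.07 within the venous side (adjusted p = 0.00638 by edgeR) and was at -0.74 within the arterial side (adjusted p = 0.0746). CCND2 fell on both sides, by 1.24 and 0.69, and the call on the venous side was lost with depth-matched cells (adjusted p = 0.0676 by edgeR). Of the 27 nucleotide genes 10 rose within the arterial side and 15 within the venous side, and of 29 chromatin genes 22 and 25. Of all 12423 genes, 482 were called higher within the arterial side and 567 within the venous side. The difference of the class effect between the sides, tested as such, gave 0 of 12423 genes by edgeR (0%), with 993 at an unadjusted p under 0.05, 44 by DESeq2 and 20 with organoid as a block.

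**Figure D4:**
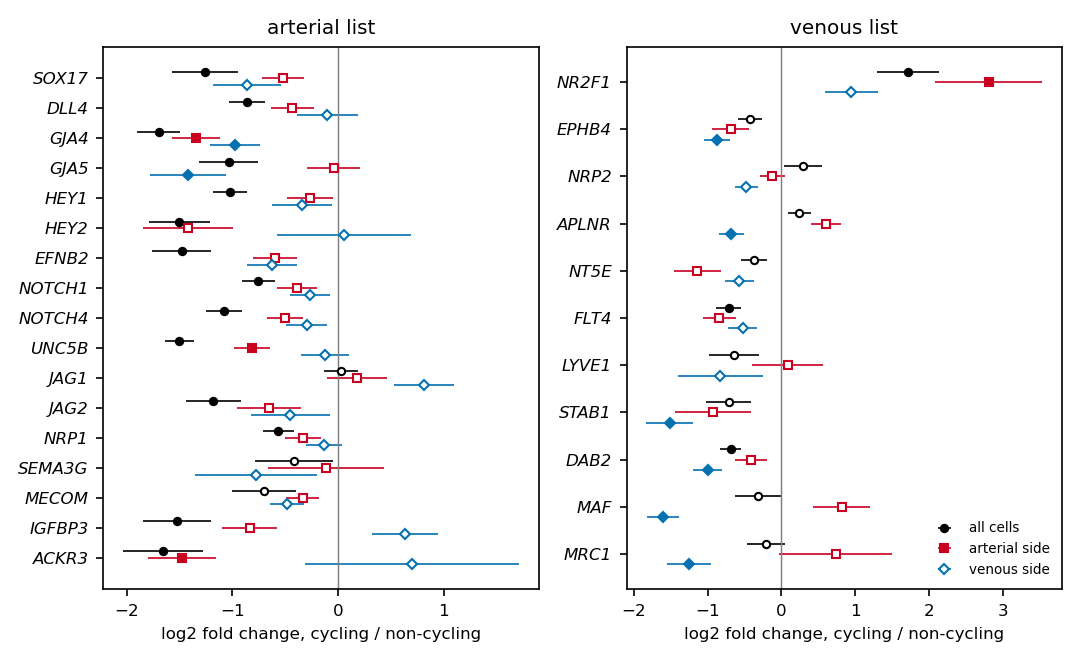
Log2 fold change of cycling over non-cycling cells for genes of the arterial (left) and venous (right) lists, over all endothelial cells, within the arterial side and within the venous side, with bars of 1 SE and filled symbols where the adjusted p of edgeR was under 0.05. GJA4 lies below 0 in all 3 and MAF lies at -1.60 within the venous side. CXCR4 and NR2F2, which set the sides, are left out, as is STAB2, which was at or near 0 in cycling cells.

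The cycling cells of the 2 sides differed from each other in arterial, tip and venous genes. These lists are given as a description, because CXCR4 and NR2F2 set the sides. Comparing 33 arterial-side with 40 venous-side cycling cells, 194 of 12423 genes were called (1.56%), with 100 higher on the arterial side (0.805%) and 94 on the venous side (0.757%). No gene of the S phase, G2/M, mitotic, nucleotide or chromatin lists was among them. A sum of 10 arterial-side cells in organoid 33.10 limits this comparison, with 299 genes called under an organoid block and 74 at 8000 UMIs a cell.

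Of 17 arterial genes 9 were higher on the arterial side and none on the venous side (median 1.36). SOX17 stood at 169 and 133 CPM against 22.8 and 19.3 CPM (7.64-fold, adjusted p = 0.000732 by edgeR). EFNB2 stood at 362 and 633 CPM against 87.5 and 98.7 CPM (5.26-fold) and DLL4 at 122 and 149 CPM against 22.8 and 45.1 CPM (4.05-fold). These values did not overlap. Of 19 tip genes 8 were higher on the arterial side. ESM1 stood at 1447 and 1202 CPM against 34.3 and 49.4 CPM (32.9-fold), VEGFC stood at 65.4 and 202 CPM against 1.90 and 6.44 CPM, and ANGPT2, a destabilising ligand of TEK, was higher by 2.66 on the log2 scale.

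On the venous side 4 of 12 venous genes were higher. NRP2 stood at 786 and 839 CPM against 221 and 250 CPM (3.40-fold) and APLNR at 299 and 249 CPM against 121 and 101 CPM (2.33-fold). MAF and NT5E, the ectonucleotidase CD73, were also called, at -1.79 and -1.97 on the log2 scale and at -2.47 and -1.02 without organoid 32.7. TEK stood at 175 and 245 CPM against 52.0 and 53.2 CPM (3.85-fold). SMAD6, an inhibitor of BMP signalling, was 2.64-fold higher on the venous side, and its relative SMAD7 stood at 24.7 and 19.3 CPM against 1.68 and 0 CPM. In the G1 list CCND2 stood at 122 and 178 CPM against 68.8 and 74.5 CPM and CDK6, its kinase partner, at 116 and 185 CPM against 65.4 and 69.1 CPM, the 2 of 16 G1 genes called.

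The largest differences between the sides included genes absent from a side. SLC45A4 stood at 65.4 and 79.8 CPM on the arterial side and at 0 on the venous side, at least 22.8-fold higher against a floor of 3 UMIs over both organoids. SHC4 stood at 20.1 and 37.2 CPM on the arterial side against 0 and 2.15 CPM, and CHST1 at 21.8 and 26.6 CPM against 1.90 and 0 CPM. SOST, an inhibitor of WNT signalling, stood at 126 and 45.1 CPM on the venous side and at 0 on the arterial side, at least 22.9-fold higher. LINC02718 was at least 14.8-fold and ACP5 at least 10.3-fold higher on the venous side, and DSCAM stood there at 59.0 and 68.7 CPM against 3.35 and 0 CPM and TMEM182 at 38.1 and 21.5 CPM against 1.68 and 0 CPM.

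Set against cycling mesenchymal cells, cycling endothelial cells carried less RNA of G2/M genes and more of several nucleotide genes. Lineage genes follow from the gates, so only the cell cycle, nucleotide and chromatin lists were read in this comparison. Over all genes 5283 of 17522 were called (30.2%), with 12.2% higher and 18% lower in endothelial cells, and the median gene lay at -0.12. Of these calls 40.3% were higher. The share was 50.7% with stricter lineage limits, 53.2% without a count filter and 53.7% without cells over 1% erythroid or megakaryocyte UMIs. Of 52 genes of the G2/M phase list 33 were lower and none higher (median -0.62), and of 20 mitotic genes 8 were lower. Of 43 S phase genes 6 were higher, a share near the 12.2% of all genes, and 1 lower (median 0.26). Over the other settings with a test the G2/M count was between 18 and 41 lower, none was higher in any, and the S phase count was between 6 and 16 higher.

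CCNB1 stood at 104 and 80.2 CPM in cycling endothelial and at 211 and 177 CPM in cycling mesenchymal cells (2.19-fold lower, adjusted p = 0.000821 by edgeR). CENPF, a kinetochore gene, stood at 188 and 183 CPM against 472 and 409 CPM, and PTTG1, securin, fell 3.18-fold. TIPIN, a replication fork protein gene, stood at 77.6 and 84.2 CPM against 29.3 and 26.6 CPM (2.75-fold higher). PCNA and CCNE2 were 0.49 and 1.13 higher on the log2 scale. Of 27 nucleotide genes 8 were higher and none lower, with DCK, deoxycytidine kinase, at 49.3 and 48.5 CPM against 21.9 and 20.6 CPM. The gating gene TOP2A was at 241 and 269 CPM against 577 and 482 CPM, as a description.

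Of 16 G1 genes 4 were higher and 1 lower in endothelial cells, a share called near the 30.2% of all genes, so single genes are described and the list is not read as a group. RB1 stood at 567 and 595 CPM against 111 and 127 CPM, 4.63-fold higher (adjusted p = 1.07e-07 by edgeR). CCND1 stood at 162 and 210 CPM against 70.0 and 63.8 CPM (2.63-fold) and MYC, a growth factor-induced transcription factor, at 40.0 and 22.2 CPM against 6.72 and 5.58 CPM (4.99-fold). CDK6 was lower by 1.04 on the log2 scale. RB1 and CCND1 were high in non-cycling endothelial cells too, at 642 and 728 CPM and at 193 and 185 CPM, against 88.4 and 99.2 CPM and 42.1 and 42.1 CPM in non-cycling mesenchymal cells. Of 8 CDK inhibitors 3 were lower in endothelial cells. CDKN1C, the imprinted inhibitor p57, stood at 28.8 and 17.5 CPM against 140 and 89.1 CPM (5.03-fold lower). Among 29 chromatin genes 1 was higher and 5 lower, near the 18% of all genes lower, and without the 4 shared with the cell cycle lists 3 of 25 were lower. HMGA2 stood at 159.5 and 207 CPM against 405 and 446 CPM.

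Whether cycling went with a different change in endothelium than in another lineage was tested as the difference of the 2 cycling differences. Against the mesenchymal gate 115 of 17522 genes were called (0.656%), 28 with a more positive change in endothelial cells and 87 with a more negative one (0.497%), around an all-gene median of -0.16. Without TMM scaling that median was -0.02 and 66 genes were called, 42.4% of them positive in place of 24.4%. With organoid as a block 782 genes were called. CCNE1 had the largest positive difference by the naming rule (log2 2.72 ± 0.49 SE), since it rose from 1.33 and 1.32 to 14.6 and 15.5 CPM in endothelial cells and stood at 18.5 and 12.9 CPM in non-cycling and 24.4 and 24.3 CPM in cycling mesenchymal cells. FLT1 went the opposite way, with a difference of -1.90 ± 0.21 SE (adjusted p = 0.00158 by edgeR). It was lower in cycling endothelium and stood at 99.2 and 96.0 CPM in non-cycling and 151 and 175 CPM in cycling mesenchymal cells, against 65.3 and 64.1 CPM in non-cycling cardiomyocytes. At 8000 UMIs a cell FLT1 was seen in 37.7% and 40.3% of non-cycling and 44.0% (interval 35.1 to 53.2) and 53.4% (46.3 to 60.4) of cycling mesenchymal cells, and in 32.5% (27.5 to 37.9) and 34.1% (29.4 to 39.0) of non-cycling cardiomyocytes. The intervals of cycling mesenchymal cells and cardiomyocytes overlapped in organoid 32.7 and not in organoid 33.10, and the part of free RNA in the mesenchymal values was not tested.

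GAS2L3, a cytoskeletal gene of late mitosis, differed by -3.01. It stood at 4.86 and 6.46 CPM in non-cycling and 19.5 and 26.9 CPM in cycling endothelial cells, against 1.26 and 1.30 and 39.6 and 37.1 CPM in the mesenchymal gate. APOLD1, an endothelial early response gene, differed by -4.03, at 43.2 and 38.0 CPM in non-cycling and 41.9 and 47.2 CPM in cycling endothelial cells, against 5.20 and 7.13 and 113 and 87.6 CPM. TACC3 and ECT2, genes of the spindle and of cytokinesis, differed by -1.47 and -1.70. Of 52 G2/M genes 7 had a more negative difference and none a more positive one.

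Against the cardiomyocyte gate, which shares the endothelial libraries with the comparison above, 58 of 17522 genes were called (0.331%), 27 positive and 31 negative (0.177%), and 222 were called with organoid as a block. Cycling cardiomyocytes numbered 26 and 35 cells, of which 15.4% and 42.9% were predicted doublets, and without predicted doublets 66.7% of calls were positive in place of 46.6%. E2F8, a repressor of the E2F family, differed by 3.71, at 0.415 and 0.458 CPM in non-cycling and 25.9 and 36.4 CPM in cycling endothelial cells, against 6.67 and 7.02 and 19.3 and 47.4 CPM in cardiomyocytes, and without organoid 32.7 the difference was 2.92. ATAD2, a chromatin ATPase gene, differed by 1.88. GPRIN3 differed by -3.35 and fell in endothelial cells from 58.4 and 55.0 to 11.7 and 10.1 CPM, and CHRM3, a muscarinic receptor gene, differed by -2.42, from 492 and 586 to 139.5 and 144 CPM. INSR differed by -1.56. FLT1 differed by -1.52, with cardiomyocyte levels of 65.3 and 64.1 CPM in non-cycling and 116 and 78.6 CPM in cycling cells. The part of free RNA and doublets in these levels was not tested, so this value is not read as a change in cardiomyocytes.

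**Figure D5:**
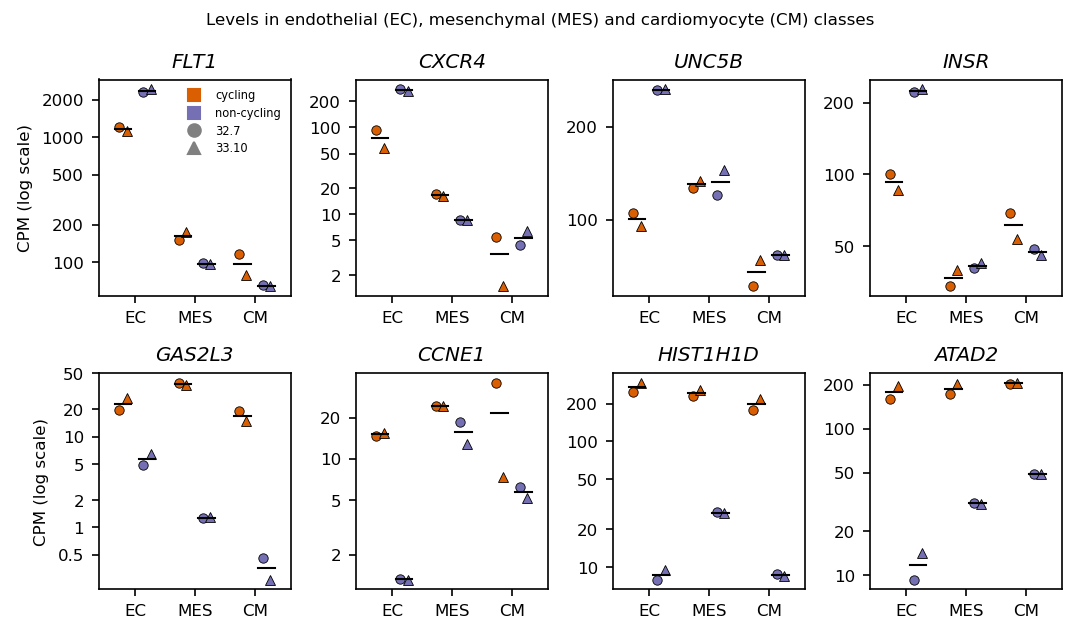
CPM on a log axis of 8 genes in cycling and non-cycling cells of the endothelial (EC), mesenchymal (MES) and cardiomyocyte (CM) gates, with a point for each organoid and a line at the mean. FLT1 lies lower in cycling than in non-cycling endothelial cells and higher in cycling than in non-cycling mesenchymal cells, and GAS2L3 is higher in the cycling cells of all 3 gates.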

How the data were processed

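Single-cell RNA was measured by 10x Genomics 3′ v3.1 chemistry in 1 library from each of 2 organoids. The authors aligned and counted the reads with Cell Ranger 7.0.0 (per the file headers) on GRCh38, with default parameters that include intronic reads, and deposited raw UMI counts per gene and barcode in 2 matrices that summed to 191152562 (organoid 32.7) and 233818881 UMIs (organoid 33.10). The deposited counts precede the study's equalizing of depth and removal of free RNA, and free RNA was not removed here. Genes that overlap on a strand are uncertain.

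Cells were chosen by thresholds on raw UMIs, and UMIs were summed per class and organoid. The study tested single cells, which share an organoid and are not replicates, so sums per organoid were tested here with edgeR 4.0.16 (quasi-likelihood F test, TMM, filterByExpr, Benjamini-Hochberg adjustment over all genes tested) in R 4.3.3, and with DESeq2 1.42.0 as an alternative. Every class came from the same 2 organoids, so organoid pairs the classes by design, and differences between organoids correlated at 0.0349 to 0.397 between classes over 17522 genes. The main fits had no block. The fit over all cells took the cycling and non-cycling sums of the endothelial, mesenchymal and cardiomyocyte gates as separate libraries. The error of a comparison thus pools classes outside it. An arterial-venous fit used the 4 side classes. Scrublet in scanpy 1.11.5 predicted 1235 of 16792 (7.35%) and 4176 of 19893 (21.0%) cells as doublets. These were kept and removed in an alternative. Fits were tested on simulated data.

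Named genes were members of the lists and, in each comparison, the 5 largest differences in each direction with an adjusted p under 0.05, a mean of at least 20 CPM in the higher class and the same direction in both organoids. For a difference of differences the higher class could lie outside the endothelium. Other genes of the text were chosen after their values were seen. The members and lists were chosen with earlier results of these data known. Fold changes come from edgeR's fit, whose prior count pulls low genes towards 0. Values without an organoid come from TMM-scaled log2 CPM with a prior count of their own. Alternatives changed the scaling, the low-count filter, the tool, the block, the classes fitted, the cell filter, the cycling threshold, the limits on other lineages and the depth.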

Additional observations from a re-analysis of the deposited data

Results flagged for a closer look

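The change with cycling differed between endothelial and mesenchymal cells for 115 genes and between endothelial and cardiomyocyte cells for 58, by a test of the difference itself in edgeR with an adjusted p under 0.05. Both tests share the endothelial libraries. Against mesenchymal cells the named differences, on the log2 scale, were 2.72 for CCNE1, 2.51 for AQP3, 2.50 for HIST1H1B, 2.39 for HIST1H2AG and 2.29 for HIST1H2AH, and -4.03 for APOLD1, -3.01 for GAS2L3, -2.88 for CXCR4, -2.82 for NR5A2 and -2.32 for SUN2. Without organoid 32.7 APOLD1 was at -3.43, NR5A2 at -2.23 and SUN2 at -2.92, and without organoid 33.10 HIST1H1B was at 1.83 and HIST1H2AG at 1.56. AQP3, an aquaporin gene, fell in mesenchymal cells from 82.8 and 71.7 CPM to 31.1 and 33.5 CPM and stood at 2.53 and 2.85 CPM in non-cycling and 7.80 and 6.06 CPM in cycling endothelial cells. The part of free RNA and doublets in these low endothelial values of AQP3 was not tested. NR5A2, a nuclear receptor gene, stood at 165 and 176 CPM in non-cycling and 148 and 186 CPM in cycling endothelial cells, against 0.671 and 1.78 and 6.36 and 8.80 CPM in the mesenchymal gate. At 8000 UMIs a cell it was seen in 4% (interval 1.31 to 9.09) and 2.45% (0.801 to 5.63) of cycling mesenchymal cells. The shares were 0.425% (0.0877 to 1.24) and 0.567% (0.155 to 1.45) of non-cycling mesenchymal cells, and 1.23% (0.335 to 3.11) and 0.509% (0.0617 to 1.83) of non-cycling cardiomyocytes. The intervals of cycling mesenchymal cells overlapped those of cardiomyocytes in both organoids, and those of non-cycling mesenchymal cells only in organoid 33.10. The part of free RNA in the mesenchymal values was not tested, and the NR5A2 difference is not read as a different change with cycling.

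Against cardiomyocytes they were 3.71 for E2F8, 2.89 for SPSB4, 2.87 for PEG10, 2.45 for C16orf74 and 2.34 for LRRN4, and -3.44 for GAS2L3, -3.35 for GPRIN3, -3.20 for RMST, -2.91 for SLC45A4 and -2.42 for CHRM3. Without organoid 32.7 E2F8 was at 2.92, and without organoid 33.10 SPSB4 was at 2.17 and GAS2L3 at -2.77. PEG10, an imprinted gene, stood at 27.8 and 20.3 CPM in non-cycling and 72.7 and 44.5 CPM in cycling endothelial cells, against 369 and 446 and 144 and 138 CPM in cardiomyocytes. In cycling endothelial cells SPSB4 stood at 3.41 and 6.06, C16orf74 at 6.83 and 10.1 and LRRN4 at 7.32 and 6.06 CPM. Non-cycling cardiomyocytes held 31.4 and 39.6, 21.4 and 22.7, and 31.7 and 33.4 CPM of them. The part of free RNA and doublets in the low endothelial values was not tested, and these 3 are not read as a different change with cycling.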

How the results depend on the processing

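With 2 organoids, leaving out either one leaves no residual degrees of freedom and gives values without a test. Over 193 gene and comparison pairs, 2276 of 2620 values under alternatives with a test kept their direction and side of the threshold, 305 lost and 21 gained the call and 18 reversed. Of 386 values without an organoid, which have no test, 239 moved by less than the SE of the main fit, 146 by more and 1 reversed. Those values are a different estimate from the fit, and the part of this in the moves was not tested. A change of sign in a gene without a call was not counted as reversed. TEK, cycling against non-cycling endothelial cells, was at 0.061 on the log2 scale and at -0.039 without organoid 33.10. Fits without endothelial cells over 1% erythroid or megakaryocyte UMIs (blood-marked cells), each side alone, with and without depth matching, and the block with depth-matched cells were added after seeing the data. Where counts moved by over 1.5 times the cause was not tested.

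Cycling against non-cycling endothelial cells gave 3702 genes with the organoid block, 1239 with stricter lineage limits, 1452 at 8000 UMIs, 580 on the arterial side and 893 on the venous side, and with depth-matched cells 544 and 602. Of these calls 45.3% were higher in the main fit, 62.0% without TMM, 61.8% with only the classes compared, 61.2% with stricter limits and 63.5% without blood-marked cells. Against cycling mesenchymal cells 3421 were called at 8000 UMIs. The difference from mesenchymal cells gave 286 with DESeq2, 66 without TMM, 472 without a count filter, 782 with the block, 59 with only its classes, 20 with stricter limits, 50 at 8000 UMIs and 74 without blood-marked cells. That from cardiomyocytes gave 245 with DESeq2, 387 without a filter, 222 with the block, 19 with stricter limits and 22 at 8000 UMIs. The sides of cycling cells gave 323 with DESeq2, 536 without a filter, 299 with the block, 119 at 6 UMIs of MKI67 and TOP2A, 49 with stricter limits and 74 at 8000 UMIs. The difference of the class effect between sides gave 44 with DESeq2, 144 without a filter, 20 with the block, 4 without doublets, 1 with the study's cell filter, 8 with stricter limits and 3 at 8000 UMIs. The cycling share of organoid 32.7 was 2.87% at 6 UMIs, 5.80% at 2 UMIs, 2.33% with stricter limits and 2.92% after thinning, and that of organoid 33.10 was 2.53% at 6 and 5.58% at 2 UMIs.

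Reversed values on the log2 scale came from 4 settings besides leaving out an organoid. Within the venous side ACKR3 was at 0.70, APLNR at -0.68, HEY2 at 0.054, HMGA2 at 1.07, PGF at 0.24 and TEK at -0.91, and with depth-matched cells AC080132.1 at 0.52, ACKR3 at 1.75, DLL4 at 0.021, HMGA2 at 0.80 and TEK at -0.93. With stricter limits AHSP was at -5.74, HBZ at -0.50 and KLF1 at -3.86. Without blood-marked cells AHSP was at -2.12, HBZ at -0.97, KLF1 at -4.88 and PF4 at 0.14. Without organoid 32.7 (replicate 1) HBZ was at -0.038, and without organoid 33.10 at 5.63. The block changed no other named call than RB1 and CDKN1C, called lower against non-cycling cells at -0.35 and -0.82, and MCM6, called higher against mesenchymal cells at 0.52, beside calls in the lists given above.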
